A study of Mus musculus with 9 samples.

Results

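Dendritic cells of the mouse thymus sorted as SIRPa were compared with those sorted as XCR1. The 6 libraries, 3 of each population, were chosen by their titles alone out of the 9 of the series, and 15417 genes with enough counts were tested out of 55302 gene rows in the count table. All 6 came from C57BL/6 mice of 8 weeks whose thymi were digested for 30 min with collagenase D, stained with antibody and sorted, and the labels record no treatment. The other 3 libraries, sorted as CD301b, entered the statistical fit to share its estimate of the spread, and also counted in the filter on low counts. With the 6 libraries alone 14398 genes passed that filter, of which 2110 were called higher in SIRPa and 1819 higher in XCR1. The design text names 3 mice. The sources used here do not say whether a SIRPa and an XCR1 library came from the same animal, whether animals were pooled, or which antibodies and gates were used. The spread behind each p-value is that between libraries and may be technical in part. The source label says thymocytes, while the cell type label says thymic dendritic cells.

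Conventional dendritic cells take up antigen, cut it into peptides and show these to T cells on MHC molecules. They form a pair of lineages. Type 1 cells (cDC1) depend on the transcription factors IRF8 and BATF3, carry the chemokine receptor XCR1, and are known for taking up dead cells and for cross-presentation, the display of engulfed antigen on MHC class I. Type 2 cells (cDC2) carry the inhibitory receptor SIRPα, depend in part on IRF4, and are known for presentation on MHC class II to CD4 T cells. In the thymus both display self-antigens to developing thymocytes. The cDC1 arise largely within the organ, while part of the SIRPα-bearing cells enter from the blood.

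Levels are given as CPM, the count relative to the library's total scaled by TMM, an edgeR normalisation, and CPM does not correct for gene length. Coordinates are those of GENCODE vM21 on GRCm38. Where 3 values are listed, they are replicates 1, 2 and 3 of a population, and where levels are set against each other the SIRPa value comes first. The ± after a mean is the SD over the 3 libraries. A gene was called where edgeR's quasi-likelihood test gave an adjusted p under 0.05, and each adjusted p below is from that test unless another is named. For called genes named below the populations did not overlap unless stated. Total counts ran from 20481629 to 22030933 per library. Spearman correlations of log2 CPM were 0.970 to 0.972 among SIRPa libraries, 0.960 to 0.967 among XCR1 libraries and 0.892 to 0.911 between the populations, and the first principal component, with 56.5% of the variance, separated the populations. The second, with 13.7%, spread the XCR1 libraries, with scores of -6.56, -63.9 and 88.6, while the SIRPa libraries scored -15.4 to 1.27. XCR1 replicate 3 held more transcripts of other cells than the other XCR1 libraries. Thymocyte and T cell markers summed to 1520 CPM in it and 563 to 639 CPM in XCR1 replicates 1 and 2. In the SIRPa libraries they summed to 1060 to 1560 CPM. Among these markers Cd4, Il7r and Cd8a are also genes of dendritic cells, so sums of the 2 populations do not compare thymocytes alone. The granulocyte markers of XCR1 replicate 3 summed to 58.7 CPM, against 1.43 and 1.8 CPM in the other XCR1 libraries. In the SIRPa libraries they summed to 61.9 to 119 CPM. For Rag1, a recombinase of immature thymocytes, levels were 23.3, 9.58 and 62.7 CPM in the SIRPa libraries and 8.18, 4.99 and 115 CPM in the XCR1 libraries. List counts that move by over 1.5 times without this library are given below with both values.

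Markers of macrophages and monocytes were far higher in the SIRPa libraries. The macrophage list summed to 3420 to 4010 CPM in the SIRPa libraries and 128 to 168 CPM in the XCR1 libraries. The monocyte list summed to 3720 to 4130 CPM in the SIRPa libraries and 148 to 259 CPM in the XCR1 libraries. These lists share members with the cDC2 list described below: Lyz2, Ccr2 and Itgam for monocytes and Csf1r for macrophages. Lyz2 made up most of the monocyte sum in each SIRPa library, so that sum is not separate from cDC2 identity. Among the tested macrophage markers, 18 of 20 were called higher in SIRPa, where 13.9% of all tested genes were called in that direction and 10.7% as higher in XCR1. Vsig4, a macrophage marker of that list, was at 0 counts in all 6 libraries, and Cd163 was at 10.6, 5.27 and 5.09 CPM in the SIRPa libraries and 0, 1.24 and 2.41 CPM in the XCR1 libraries. Plasmacytoid dendritic cell markers summed to 1180 to 1280 CPM in the SIRPa libraries and 537 to 566 CPM in the XCR1 libraries, and B cell markers to 276 to 686 CPM in the SIRPa libraries and 108 to 222 CPM in the XCR1 libraries. The plasmacytoid marker Siglech was at 41, 31.1 and 34.8 against 7.43, 4.13 and 11.6 CPM, and the B cell receptor chain Cd79a at 3.93, 2.06 and 1.65 against 0, 0 and 0 CPM. In bulk libraries fewer cells of a type and less RNA per cell cannot be told apart, and the part these markers have in the SIRPa-high genes described next was not tested.

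**Figure D1:**
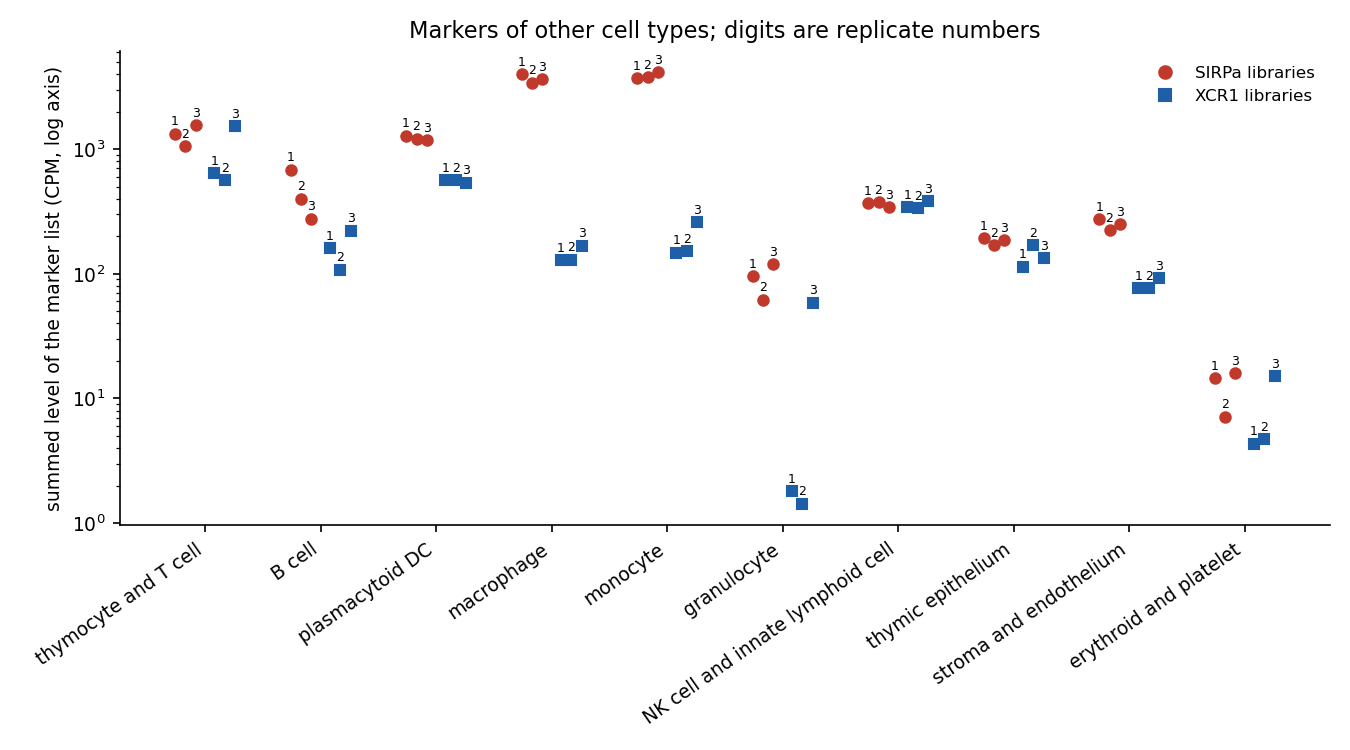
Summed CPM (log axis) of 10 marker lists of other cell types, 1 point per library, SIRPa as circles and XCR1 as squares, with the replicate number above each point. Macrophage and monocyte sums lie at or above 3420 CPM in every SIRPa library and at or below 259 CPM in every XCR1 library, and XCR1 replicate 3 is the highest XCR1 library for every list drawn except plasmacytoid DC and thymic epithelium.

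The populations carried the transcripts they are named for. Sirpa (chromosome 2, 129592835 to 129632228, plus strand) was at 841, 734 and 746 CPM in the SIRPa libraries and 14, 9.03 and 14.6 CPM in the XCR1 libraries, a 61.7-fold difference of the means. Xcr1 (chromosome 9, 123852315 to 123862029, minus strand) was at 6.58, 15.6 and 6.65 against 782, 854 and 663 CPM, 79.8-fold in the other direction. The libraries were sorted for populations of these names, so both genes are given without a test. Both are still counted in lists below. Sirpa is among the cDC2 genes and paired receptors, and Xcr1 among the cDC1 genes and chemokine receptors. Axl (chromosome 7, 25757273 to 25788705, minus strand), a receptor tyrosine kinase that binds phosphatidylserine through GAS6, was at 800.5, 680.3 and 694 against 34.4, 34 and 38.8 CPM (log2 fold change 4.34 ± 0.11 (SE), adjusted p = 5.08e-16). Itgae (chromosome 11, 73090583 to 73147446, plus strand), the integrin chain CD103 that binds E-cadherin, was at 56.1, 42.4 and 48.9 against 464, 537 and 451 CPM (log2 fold change -3.30 ± 0.15 (SE), adjusted p = 4.26e-13). For all 4 genes every library of the higher population lay above every library of the lower one. In the CD301b libraries Sirpa was at 705, 633 and 599.6 CPM, and their cDC1 and cDC2 list sums were 2570 to 2980 CPM and 7860 to 8640 CPM.

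The wider lists of identity genes separated the populations in both directions. Of the cDC1 list, 1 of 28 tested members was higher in SIRPa, 26 were higher in XCR1 and 1 was not called, with a median log2 fold change of -2.87 beside 0.06 for all tested genes. The summed level of this list was 2580 to 2970 CPM in the SIRPa libraries and 14000 to 16400 CPM in the XCR1 libraries. Clec9a, the receptor by which cDC1 recognise actin of dead cells, was at 9.84, 11.9 and 14.1 CPM in the SIRPa libraries and 206, 194 and 156 CPM in the XCR1 libraries. Wdfy4, needed for cross-presentation of cell-bound antigen, was at 915, 1126 and 979.8 against 4952, 4467 and 4051 CPM. Cadm1, an adhesion molecule, was at 37.8 ± 6.79 against 193 ± 12.9 CPM, Cd8a at 90.8 ± 7.97 against 248 ± 20.5 CPM, the DC lectin receptor Ly75 (DEC-205) at 193 ± 1.79 against 441 ± 40.4 CPM and Btla, an inhibitory receptor, at 62.5 ± 3.1 against 238 ± 28.3 CPM. Against the list's name, Nfil3, a transcription factor required for cDC1 development, was higher in SIRPa at 28.2, 31.6 and 28.4 against 12.5, 20 and 14.7 CPM (adjusted p = 0.00433), and Tlr12 was not called at 52.9, 41.5 and 44.1 against 61.1, 57.3 and 47.6 CPM. Of the cDC2 list, 22 of 26 tested members were higher in SIRPa, 2 were higher in XCR1 and 2 were not called, with a median of 4.08 and summed levels of 8120 to 8520 CPM in the SIRPa libraries and 940 to 1010 CPM in the XCR1 libraries. Cd209a, a lectin of the DC-SIGN family, was at 68.8, 90.3 and 81.8 against 0, 0.855 and 1.5 CPM. Cx3cr1, the receptor for fractalkine, was at 238, 209 and 231 against 1.2, 0.143 and 1.78 CPM. Lyz2, lysozyme M, was at 2558, 2589.7 and 2943 against 33.2, 24.6 and 51.3 CPM. The 2 members higher in XCR1 were Clec12a, an inhibitory receptor for uric acid crystals, at 45.4, 38.7 and 40.2 against 102, 119 and 93.6 CPM, and Notch2 at 365, 336 and 319 against 589, 469.7 and 395 CPM. Esam and Epcam were not called, at 5.03 against 3.68 CPM and 29.3 against 31.3 CPM.

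**Figure D2:**
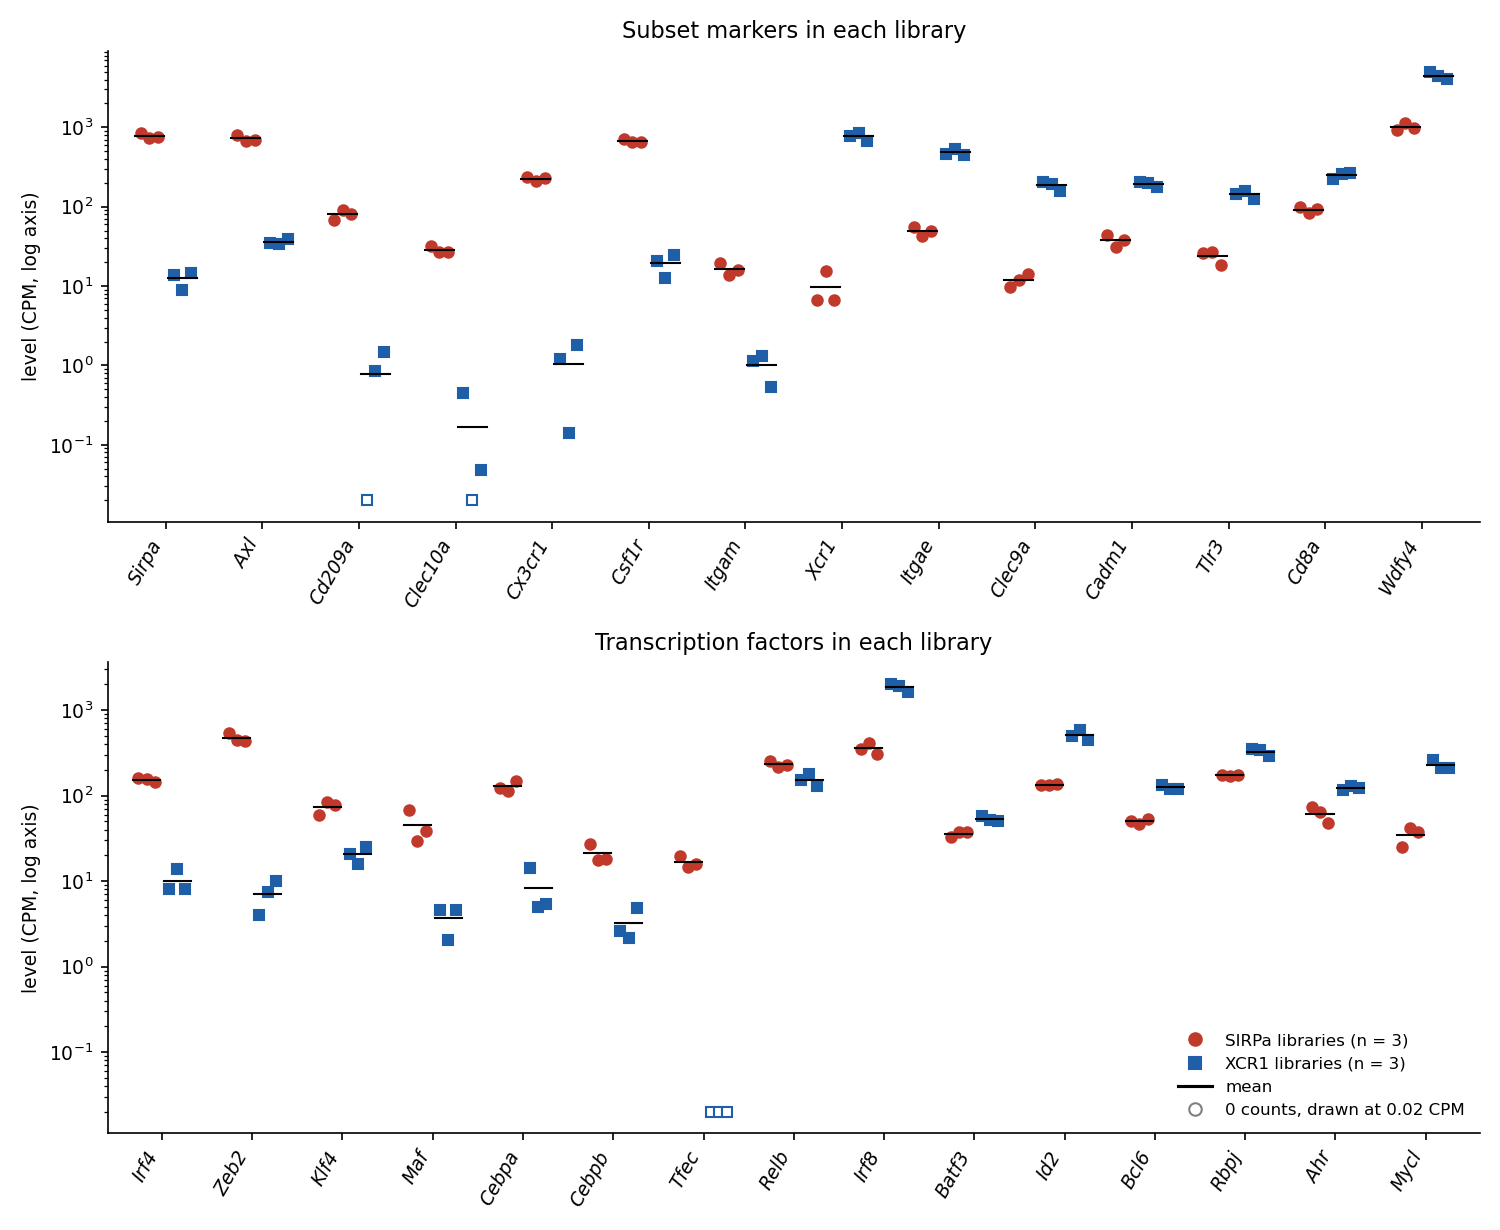
Levels (CPM, log axis) of 14 subset markers (top) and 15 transcription factors (bottom) in each library, SIRPa as circles and XCR1 as squares, with a bar at each population's mean and open symbols for 0 counts. The populations do not overlap for any gene drawn, and Tfec has 0 counts in every XCR1 library.

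Over all genes, 2147 were called higher in SIRPa and 1656 higher in XCR1, which is 24.7% of those tested. At a difference of at least 2-fold the counts were 1478 (9.59%) and 583 (3.78%), so SIRPa-high genes made up 56.5% of all calls and 71.7% of those past 2-fold. Without XCR1 replicate 3, 2102 and 1574 genes were called. More genes had at least 1 count in a SIRPa library, 18171 to 18779, than in an XCR1 library, 16309 to 17371, and 401 tested genes had 0 counts in every library of a population. Groups did not overlap for 40.2% of tested genes.

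The largest ratios toward SIRPa belonged to genes with no count in any XCR1 library, so each is a lower bound computed against 3 counts over the group, which covers counting error only. Spon1, the extracellular matrix protein spondin 1, was at 77.7, 77.8 and 72.4 CPM in the SIRPa libraries, at least 1566-fold above that floor (adjusted p = 1.46e-14). Clec4a3, a C-type lectin, was at 43.8, 32.8 and 34.2 CPM, at least 761-fold. F10, coagulation factor X, was at 31.7, 35.5 and 43.5 CPM, at least 759.6-fold. Tarm1, an activating receptor of myeloid cells, was at 22.3, 25.1 and 24.6 CPM (at least 495-fold), and Atp6v0d2, a subunit of the proton pump of lysosomes and osteoclasts, at 28.4, 22.8 and 20.4 CPM (at least 492-fold). The chemokine Ccl12 was at 25.8, 15.2 and 25.6 CPM (at least 458-fold), and Tnfsf8, the ligand of CD30, at 15.9, 18.6 and 18.5 CPM (at least 364-fold). Also in this set were Tfec, a transcription factor of the MITF family, the sodium channel gene Scn3a, the dicarboxylate transporter gene Slc13a3, Zeb2os and Rnase4, at mean levels of 16.9, 17.1, 14.3, 12.6 and 11.9 CPM. Zeb2os is antisense to Zeb2 and shares 32.8% of its exonic bases with it, and the sources used here do not give the strand setting of the counting, so reads of the pair cannot be told apart.

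Toward XCR1, the largest ratio among the genes named by the same rule was that of Gpr33, an orphan receptor of the chemoattractant receptor family, at 0, 0 and 0.33 CPM in the SIRPa libraries and 18.8, 26.3 and 19.6 CPM in the XCR1 libraries (196-fold, adjusted p = 0.00184). Alpl, tissue-nonspecific alkaline phosphatase, was at 0, 0.351 and 0 against 19.1, 13.5 and 15.4 CPM (137-fold). Fzd1, a receptor for Wnt ligands, was at 1.23, 0.439 and 0.377 against 82.3, 91.8 and 59 CPM (log2 fold change -6.83 ± 0.38 (SE), adjusted p = 7.64e-10). Cd207 (chromosome 6, 83671215 to 83677857, minus strand), langerin, a lectin of Langerhans cells and of a share of cDC1, was at 2.84, 0.747 and 0.0943 against 156, 123 and 125 CPM (log2 fold change -6.78 ± 0.88 (SE), adjusted p = 0.00156). Notch4, a Notch receptor best known from endothelium, was at 1.37, 3.65 and 1.27 against 138, 122 and 121 CPM. Gcsam, a signalling adaptor, was at 0.331, 6.02 and 1.6 against 153, 146 and 141 CPM, and Trabd2b, a metalloprotease that cuts Wnt proteins, at 0.0473, 0 and 0.33 against 14, 9.31 and 9.98 CPM. Fzd1 and Trabd2b, which both act on Wnt ligands, were under 2 CPM in each SIRPa library. Naalad2, Chsy3, Gpr141b and Abca13 completed the 12, with mean levels of 0.268 against 22.3 CPM, 0.211 against 10.9 CPM, 10.5 against 374 CPM and 0.688 against 23.4 CPM.

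By difference in CPM, which favours long and abundant transcripts, the SIRPa side was led by Apoe, the lipid carrier apolipoprotein E, at 3172, 3002 and 3741 CPM in the SIRPa libraries and 25.7, 33.3 and 79.3 CPM in the XCR1 libraries, 71.7-fold by the means. The protease Ctss followed at 3399.7, 3274 and 3544 against 648, 749 and 643 CPM, and Lyz2 stood beside them with the values above. C3, the central complement component, was at 1578, 1179 and 1412 against 6.78, 4.94 and 20.4 CPM (129.6-fold). Cybb, the catalytic subunit of the phagocyte NADPH oxidase, was at 1109, 966 and 958 against 4.74, 0.19 and 13 CPM (169-fold). Tgfbi, an extracellular protein induced by TGF-β, was at 1208 ± 57.3 against 303 ± 63.7 CPM, the selenium carrier Selenop at 996 ± 68.1 against 34.2 ± 19.6 CPM and the ferritin heavy chain Fth1 at 1823 ± 138 against 516 ± 22.5 CPM. On the XCR1 side the order began with Actb, β-actin, at 13458 ± 485 against 22486 ± 2284 CPM, and Wdfy4. Cst3, the cathepsin inhibitor cystatin C, was at 654, 712 and 694 against 3872, 4222 and 3367 CPM (5.57-fold). Mpeg1, the pore-forming perforin-2, was at 1327, 1144 and 1151 against 3531, 3734 and 3216 CPM. The lipid hydrolases Ppt1 and Naaa were at 191 ± 22 against 1895 ± 116 CPM and 121 ± 32 against 1583 ± 181 CPM, Irf8 at 356 ± 49.4 against 1873 ± 202 CPM, Psap, the precursor of the saposins, at 4235 ± 261 against 5518 ± 584 CPM and Plbd1, a phospholipase B-like protein, at 568 ± 26.5 against 1705 ± 84 CPM. The difference in Psap was 1.3-fold and that in Actb 1.67-fold, small beside their levels.

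**Figure D3:**
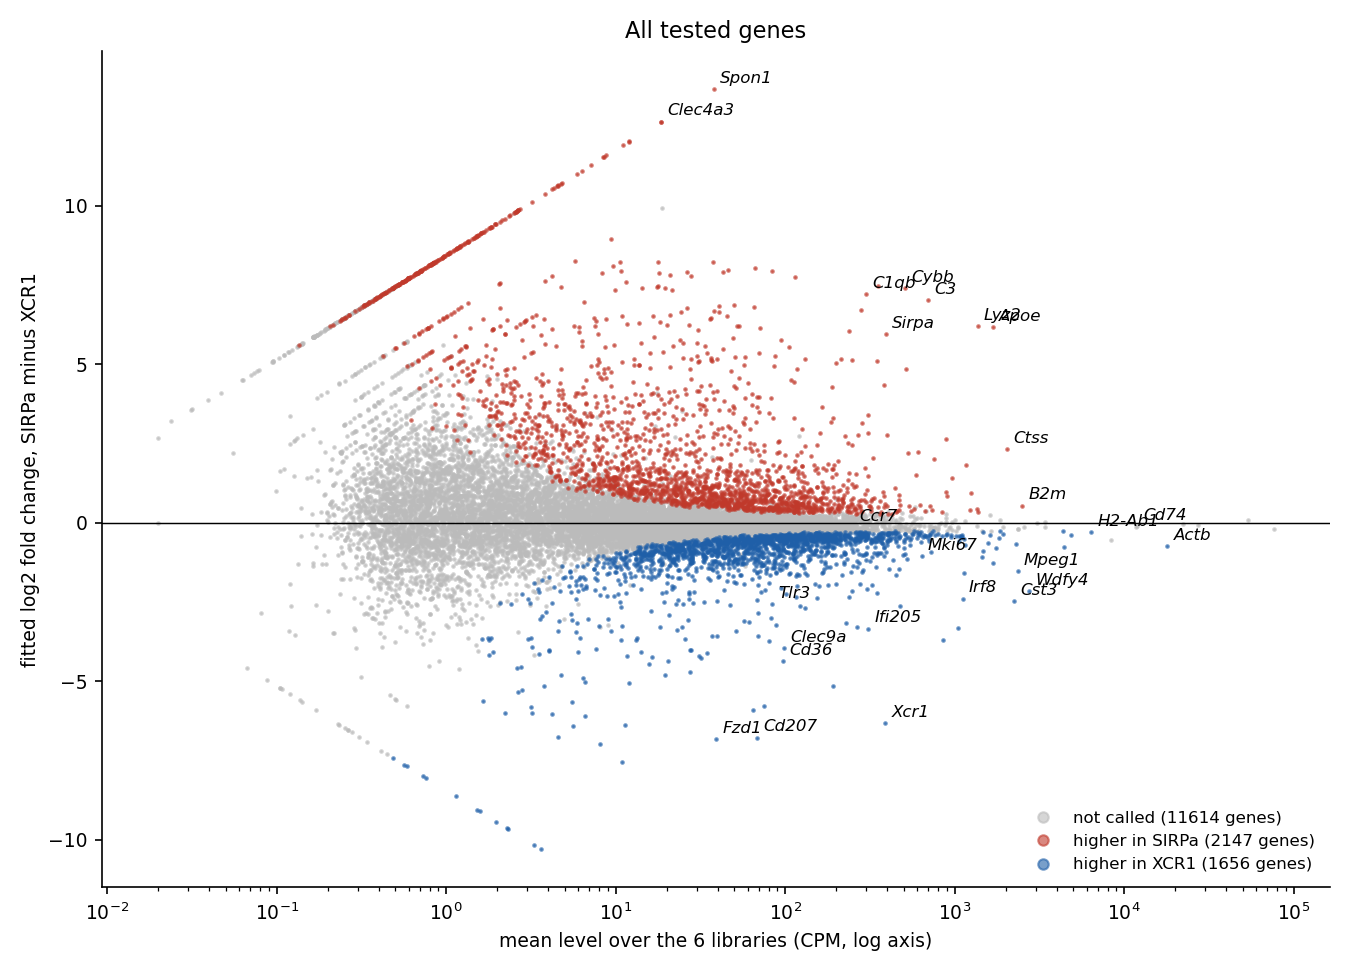
Fitted log2 fold change (SIRPa minus XCR1) against the mean level over the 6 libraries (CPM, log axis) for the 15417 tested genes, with 2147 genes called higher in SIRPa above 0 and 1656 called higher in XCR1 below 0. The straight rows of points at both edges are genes with 0 counts in every library of a population, whose fitted values depend on the prior count, and the points past 5 on the log2 scale lie mostly on the SIRPa side.

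Transcription factors known from either lineage differed in both directions. Of the list, 20 of 37 tested members were higher in SIRPa, 8 were higher in XCR1 and 9 were not called. Irf8 (chromosome 8, 120736358 to 120756694, plus strand), required for cDC1, was at 352, 407 and 309 CPM in the SIRPa libraries and 2034, 1938 and 1645 CPM in the XCR1 libraries (log2 fold change -2.39 ± 0.13 (SE), adjusted p = 5.94e-11). Irf4 (chromosome 13, 30749226 to 30766976, plus strand), required by part of the cDC2, was at 160.2, 157 and 144 against 8.18, 13.7 and 8.05 CPM (log2 fold change 3.95 ± 0.18 (SE), adjusted p = 1.71e-12). Zeb2, which represses Id2 and favours cDC2, was at 534, 444 and 435 against 3.99, 7.36 and 10 CPM and Id2, an inhibitor of E proteins, at 132, 132 and 136 against 505, 590.3 and 452 CPM. The E protein Tcf4, a factor of plasmacytoid cells, was at 213, 224 and 173 against 41.3, 50.1 and 39.2 CPM and thus opposite to Id2. Further genes higher in SIRPa were Maf, a factor of macrophages, at 45.3 ± 20.3 against 3.74 ± 1.47 CPM, Cebpa and Cebpb at 129 ± 17.7 against 8.22 ± 5.24 CPM and 21.1 ± 5.58 against 3.22 ± 1.45 CPM, Klf4 at 74.2 ± 13.6 against 20.6 ± 4.77 CPM, Bhlhe40 at 259.7 ± 26.4 against 47.8 ± 7.83 CPM and Prdm1 at 34.8 ± 4.74 against 5.96 ± 2.88 CPM. Cebpb shares 20.7% of its exonic bases with a gene on the other strand. The NF-κB subunits Rel and Relb were higher in SIRPa by 1.77-fold and 1.52-fold. The XCR1 side held Batf3 at 32.8, 37.7 and 37.6 against 58, 51.8 and 49.9 CPM (log2 fold change -0.56 ± 0.17 (SE), adjusted p = 0.0158), the repressor Bcl6 at 50.5 ± 3.73 against 125 ± 6.72 CPM, the Notch effector Rbpj at 173 ± 4.02 against 327 ± 31.3 CPM, the aryl hydrocarbon receptor gene Ahr at 61.6 ± 13.1 against 124 ± 7 CPM, Klf2 at 22.6 ± 4.71 against 68.9 ± 3.67 CPM and Zbtb46, a factor of conventional dendritic cells, at 99.7 ± 12.9 against 177 ± 24.9 CPM. Batf3, the best-known cDC1 factor beside Irf8, differed by 1.48-fold, and its call was lost without SIRPa replicate 1 (adjusted p = 0.0714) or XCR1 replicate 1 (adjusted p = 0.0751). Spi1, the myeloid factor PU.1, was not called at 272, 296 and 255 against 295, 247 and 209 CPM, nor was Stat3 at 201 against 190.4 CPM.

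Receptors for growth factors were called in both directions. Of 14 tested, 9 were higher in SIRPa, 2 in XCR1 and 3 were not called. Csf1r, the receptor by which CSF1 sustains macrophages, was at 711, 652 and 654 CPM in the SIRPa libraries and 20.7, 12.5 and 24.9 CPM in the XCR1 libraries (log2 fold change 5.12 ± 0.21 (SE), adjusted p = 1.18e-09). Csf3r, the receptor for G-CSF, was at 38.6, 35.9 and 44.3 against 0.0499, 0 and 1.5 CPM, and Il7r, a receptor of lymphocytes also listed among thymocyte markers, at 117, 94.2 and 104 against 8.73, 9.41 and 13.4 CPM. The TGF-β receptor chain Tgfbr1 was at 522, 459 and 426 against 61, 70.7 and 76.1 CPM. Flt3, the receptor for the growth factor on which both dendritic lineages depend, was at 247, 252 and 256 against 548, 542 and 465 CPM (log2 fold change -1.04 ± 0.10 (SE), adjusted p = 6.07e-08), and Kit, the receptor for stem cell factor, at 92.7, 111 and 92.5 against 257, 250.2 and 225 CPM. Csf2ra, the GM-CSF receptor α chain, was not called at 95.6 ± 4.24 against 98.3 ± 9.99 CPM.

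Chemokine genes leaned to SIRPa. Of the ligands, 14 of 19 tested members were higher in SIRPa, 1 was higher in XCR1 and 4 were not called, with a median log2 fold change of 3.23. Cxcl10, an interferon-induced ligand of CXCR3, was at 52.5, 34.9 and 38.7 CPM in the SIRPa libraries and 2.19, 3.75 and 1.06 CPM in the XCR1 libraries, while Cxcl9, which binds the same receptor, was at 68.3, 58.3 and 49.6 against 154, 156 and 124 CPM and higher in XCR1 (log2 fold change -1.30 ± 0.16 (SE), adjusted p = 2.87e-06). Ccl9 was at 37.3 ± 5.01 against 0.898 ± 0.519 CPM, Ccl6 at 30.5 ± 6.33 against 2.74 ± 1.72 CPM and Ccl3 at 12 ± 2.28 against 0.16 ± 0.147 CPM. The ligands of CCR4, by which medullary dendritic cells attract thymocytes, were at 34.3 ± 4.71 against 12.8 ± 3.41 CPM for Ccl17 and 838 ± 26.2 against 586 ± 82.4 CPM for Ccl22, both called. Ccl5, a chemoattractant of T cells and monocytes, was not called at 259, 269.7 and 246 against 267, 254 and 279.8 CPM, nor was Cxcl16 at 587 against 510.2 CPM. Of the receptors, 8 of 16 tested members were higher in SIRPa, 2 were higher in XCR1 and 6 were not called. Ccr2, by which monocytes and circulating dendritic precursors follow CCL2, was at 325, 348 and 369 against 23.8, 31.3 and 49.6 CPM (log2 fold change 3.31 ± 0.23 (SE), adjusted p = 2.09e-06). Ccr1 was at 40.7, 46.5 and 37.6 against 0.549, 0 and 0 CPM, Ccr6 at 14.8 ± 1.38 against 1.39 ± 0.942 CPM, Cxcr4 at 72.5 ± 17.8 against 21.6 ± 6.76 CPM and Gpr183, the oxysterol receptor EBI2, at 129 ± 8.85 against 11.6 ± 0.387 CPM. Cxcr3 accompanied Xcr1 on the XCR1 side at 1.51, 2.42 and 0.518 against 19.8, 9.5 and 13.9 CPM. Ccr7, the receptor that leads mature dendritic cells to the medulla and to lymph nodes, was not called at 257, 223 and 240.1 against 257, 326 and 207 CPM, with overlapping populations.

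Cytokine and cytokine receptor genes leaned to SIRPa as well: 24 of 39 tested members were higher in SIRPa, 2 were higher in XCR1 and 13 were not called. Those higher in SIRPa included members and inhibitors of the interleukin 1 family of inflammatory cytokines. Il1b was at 69.2, 72.3 and 65.5 CPM in the SIRPa libraries and 8.98, 12.9 and 7.72 CPM in the XCR1 libraries, Il1a at 16.5 ± 1.94 against 0.612 ± 0.311 CPM, the receptor antagonist Il1rn at 122, 97.3 and 73 against 0, 3.23 and 1.83 CPM and Il18bp, the soluble inhibitor of interleukin 18, at 84.3, 58.4 and 57.8 against 8.83, 7.89 and 11.5 CPM. Igf1, insulin-like growth factor 1, was at 112 ± 12.8 against 2.99 ± 1.84 CPM. Il12b (chromosome 11, 44400063 to 44414033, plus strand), the p40 chain of interleukins 12 and 23, was the main exception at 18, 19.1 and 17.5 against 131, 181 and 126 CPM (log2 fold change -3.01 ± 0.17 (SE), adjusted p = 2.97e-11), and Ebi3, a chain of interleukins 27 and 35, was also higher in XCR1 at 23.4, 24.7 and 21.8 against 33, 45.6 and 36.3 CPM. Ebi3 was not called without SIRPa replicate 3 (adjusted p = 0.0515) or XCR1 replicate 2 (adjusted p = 0.0854). The receptor chains Il2ra and Il2rg were at 78.6 ± 3.14 against 17.3 ± 9.79 CPM and 151 ± 10.2 against 32 ± 7.43 CPM, and Il2rg shares 30.5% of its exonic bases with another gene on its strand. Among the genes listed for the response to IL-4 and IL-13, 25 of 32 tested members were higher in SIRPa, 1 was higher in XCR1 and 6 were not called. That list shares members with the cDC2 and macrophage lists. Cdh1, E-cadherin, the ligand of the Itgae integrin, was at 86.2, 96.8 and 95.7 against 5.69, 9.64 and 7.14 CPM, opposite to Itgae. Clec10a was at 31.8, 26.8 and 26.8 against 0.449, 0 and 0.0482 CPM, Hr, the corepressor hairless, at 7.38, 9.53 and 10 against 0, 0 and 0 CPM (at least 185-fold), and Arg1, arginase 1, at 0.521, 5.27 and 3.3 against 0, 0 and 0 CPM. The shared receptor chain Il4ra was at 153, 132 and 129 against 80, 102 and 70.6 CPM. Batf3 was the member higher in XCR1, with the limits given above, and Myc was not called at 31.6, 28.4 and 25.4 against 34.7, 26 and 34.4 CPM.

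Sensors of microbial molecules were divided by receptor. Of the list, 16 of 27 tested members were higher in SIRPa, 3 were higher in XCR1 and 8 were not called. Tlr3, the endosomal receptor for double-stranded RNA and a known cDC1 gene, was at 26.2, 27.2 and 18.3 CPM in the SIRPa libraries and 146, 158 and 124 CPM in the XCR1 libraries (log2 fold change -2.58 ± 0.20 (SE), adjusted p = 2.74e-09). Tlr11, which binds profilin of protozoa, was at 12.8, 10.6 and 8.44 against 149.7, 107 and 126 CPM (log2 fold change -3.58 ± 0.21 (SE), adjusted p = 2.85e-11). Tlr7, the endosomal receptor for single-stranded RNA, was at 69.1, 65.9 and 62.7 against 0, 0 and 4.15 CPM (log2 fold change 5.56 ± 1.20 (SE), adjusted p = 0.0168), and the related Tlr8 was at 29.7, 22.4 and 23.1 against 0, 0.713 and 1.35 CPM. The call of Tlr7 was lost without any 1 of the SIRPa libraries (adjusted p from 0.0517 to 0.0559). Tlr5, the flagellin receptor, was at 5.3, 9.36 and 11.5 against 0.0499, 0 and 0.482 CPM and Tlr1 at 64.1, 46.1 and 49.3 against 0.599, 3.52 and 2.65 CPM. Tlr9, for unmethylated DNA, was at 211, 223 and 212 against 187, 157 and 127 CPM, a 1.37-fold difference (adjusted p = 0.00854, or 0.0571 without XCR1 replicate 3), and Unc93b1, the chaperone that carries endosomal receptors, at 452 ± 9.2 against 318 ± 18.2 CPM. The cytosolic RNA sensor gene Ddx58 (RIG-I) was at 176, 135 and 151 against 16.6, 30.3 and 32.5 CPM. Nlrp3 was not called at 23.5 against 20.7 CPM.

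Interferon-induced genes gave no single direction. Of the type I list, 17 of 35 tested members were higher in SIRPa, 5 were higher in XCR1 and 13 were not called, and of the interferon-inducible GTPases and IFI200 genes, 14 of 27 tested members were higher in SIRPa, 3 were higher in XCR1 and 10 were not called. Higher in SIRPa were Ifit3 at 85.3, 75 and 72.2 CPM in the SIRPa libraries and 1.65, 3.28 and 1.54 CPM in the XCR1 libraries and Oasl2 at 179, 147 and 137 against 15.7, 17 and 14.6 CPM, Rtp4 at 39.5 ± 3.23 against 2.65 ± 1.02 CPM, Ddx60 at 65.9 ± 8.84 against 7.46 ± 2.58 CPM, Gbp3 at 141, 123 and 114 against 6.29, 15 and 8.39 CPM and Gbp7 at 78.4, 65.1 and 70.6 against 3.69, 1.47 and 7.09 CPM. Higher in XCR1 were Trim30a, an antiviral TRIM protein, at 276, 248 and 243 against 406, 412 and 346 CPM and the regulator Irf1 at 141, 117 and 123 against 166, 208 and 159 CPM. Without XCR1 replicate 2, 1 member of the type I list was higher in XCR1 instead of 5, and the adjusted p of Irf1 was 0.0809. Irf7 and Usp18, standard readouts of interferon signalling, were not called. Irf7 was at 428, 361 and 370.4 against 414, 411 and 337 CPM and Usp18 at 140.3, 109 and 135 against 125, 139 and 95.7 CPM, with overlapping populations. Also not called were Isg15 and Mx1 at 59.4 against 51.5 CPM and 90.3 against 77.7 CPM.

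The IFI200 genes, which encode DNA-binding proteins with pyrin domains and lie side by side on chromosome 1, moved in both directions within a single cluster. Ifi205 (chromosome 1, 174011998 to 174031810, minus strand), a known cDC1 transcript, was at 56, 66.6 and 43.1 CPM in the SIRPa libraries and 556, 599.8 and 527 CPM in the XCR1 libraries (log2 fold change -3.34 ± 0.25 (SE), adjusted p = 3.39e-06). Ifi211 (chromosome 1, 173896345 to 173913046, minus strand) was at 75.9, 76.3 and 64.3 against 189.8, 189.7 and 169 CPM and Ifi207 (chromosome 1, 173723427 to 173741747, minus strand) at 198, 182 and 187 against 318, 299 and 243 CPM, both higher in XCR1. Ifi206 (chromosome 1, 173468485 to 173491041, minus strand) was at 86.2, 63.2 and 77.7 against 8.48, 5.84 and 14.5 CPM (log2 fold change 2.98 ± 0.25 (SE), adjusted p = 1.19e-07) and Ifi213 (chromosome 1, 173566283 to 173599274, minus strand) at 60.3, 68.9 and 69.6 against 17.3, 11.5 and 19.3 CPM, both higher in SIRPa. These genes are close paralogs, and the sources used here do not say how reads shared between copies were counted. Their promoters are shown because neighbouring copies with opposite differences have nearly the same element. Each line gives bases upstream of the RefSeq start (GRCm38.p6, 5′ to 3′ on the gene's strand), with the core of the interferon-stimulated response element, a pair of GAAA runs spaced by any 2 bases, in capitals. For Ifi205 the 55 bases next to the start, and for Ifi213 the 2 bases, are left out because GENCODE places an exon there.
Ifi205 (chr1:174031811-174031905, minus strand): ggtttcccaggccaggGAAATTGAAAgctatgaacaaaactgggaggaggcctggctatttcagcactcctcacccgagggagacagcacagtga
Ifi211 (chr1:173913047-173913196, minus strand): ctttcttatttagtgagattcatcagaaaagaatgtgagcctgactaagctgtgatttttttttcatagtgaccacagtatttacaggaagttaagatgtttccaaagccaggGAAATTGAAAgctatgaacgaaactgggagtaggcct
Ifi207 (chr1:173741810-173741959, minus strand): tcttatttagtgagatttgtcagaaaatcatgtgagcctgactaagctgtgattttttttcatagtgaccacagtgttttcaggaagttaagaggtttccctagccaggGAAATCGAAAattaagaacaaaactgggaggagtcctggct
Ifi206 (chr1:173491319-173491468, minus strand): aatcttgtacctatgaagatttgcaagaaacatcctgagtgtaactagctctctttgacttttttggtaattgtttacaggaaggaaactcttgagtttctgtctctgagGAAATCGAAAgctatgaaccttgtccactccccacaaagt
Ifi213 (chr1:173599275-173599422, minus strand): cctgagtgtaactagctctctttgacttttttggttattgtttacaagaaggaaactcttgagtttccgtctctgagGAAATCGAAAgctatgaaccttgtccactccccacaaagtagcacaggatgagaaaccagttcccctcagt
The element reads GAAATTGAAA in Ifi205 and Ifi211, and GAAATCGAAA in Ifi207, Ifi206 and Ifi213, so Ifi207, which was higher in XCR1, shares its letters with the copies higher in SIRPa. A match to this element on either strand lay in the 250 bases before the start of 85% of the members of the GTPase and IFI200 list that have a promoter window, and of 44% of those of the type I list. Among all tested genes with a window the share was 2.87%. A match is a description of the letters and not of binding.

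Receptors of the C-type lectin family, which bind glycans and damaged cells, were called more often toward SIRPa, while their summed level differed less. The list summed to 1310 to 1370 CPM in the SIRPa libraries and 935 to 1070 CPM in the XCR1 libraries. Of the list, 18 of 28 tested members were higher in SIRPa, 5 were higher in XCR1 and 5 were not called, with a median log2 fold change of 4.49, or 4.24 with the 6 genes at 0 in a population set to their bound. Clec7a (dectin-1), which binds β-glucans of fungi, was at 387, 430.2 and 427 CPM in the SIRPa libraries and 8.33, 8.55 and 17.9 CPM in the XCR1 libraries (log2 fold change 5.16 ± 0.28 (SE), adjusted p = 9.38e-07). Clec4n (dectin-2) was at 71.4, 72.5 and 57.4 against 1.4, 0.238 and 3.28 CPM, Clec4a1 at 54.9, 44.5 and 60.7 against 0.0499, 1.09 and 0.916 CPM, Clec4e (Mincle) at 6.01, 9.97 and 11.5 against 0, 0 and 0 CPM and Cd209d at 33.4, 35.1 and 38.1 against 0, 0 and 0.338 CPM. Mrc1, the mannose receptor, was at 94.8 ± 9.91 against 4.79 ± 3.33 CPM. A single gene of the Clec4 cluster on chromosome 6 went the other way: Clec4b2 (chromosome 6, 123172893 to 123204671, plus strand) was at 0.237, 0 and 0 against 9.53, 10.4 and 7.14 CPM (log2 fold change -6.76 ± 1.14 (SE), adjusted p = 0.00012), while Clec4n, the next gene along, was higher in SIRPa at the values above. The gene before it, Clec4a2, was at 9.37, 14.5 and 17.6 against 1.35, 0 and 0 CPM, with an adjusted p of 0.0141 that became 0.0523 in a fit of the 6 libraries alone. The other lectins higher in XCR1 were Clec9a, Cd207, Clec12a and Ly75, described above. Clec2d and Clec2i were not called, at 103 against 89.1 CPM and 22.2 against 15.6 CPM.

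Paired receptors, which carry inhibitory or activating signals from the surface, were called mostly toward SIRPa. Of the list, which includes Sirpa itself, 27 of 36 tested members were higher in SIRPa, 3 were higher in XCR1 and 6 were not called. Siglec1, the sialic acid receptor CD169 of macrophages, was at 98.5, 60 and 64.4 CPM in the SIRPa libraries and 0.0499, 0.0475 and 0.627 CPM in the XCR1 libraries, and Cd33 at 96.8, 106 and 106 against 1.35, 0.95 and 1.88 CPM. Pilra was at 23.1 ± 4.99 against 0.289 ± 0.501 CPM, Cd300a at 58.7 ± 6.77 against 3.31 ± 0.799 CPM, Cd300lf at 24.8 ± 3.53 against 0.786 ± 1.05 CPM and Lilrb4a at 16.4 ± 5.53 against 1.27 ± 0.447 CPM. Sirpb1a, an activating relative of SIRPα, was at 8.85, 10.9 and 6.13 against 0, 0 and 0 CPM. Cd47, the ligand of SIRPα, was at 373, 360.3 and 352 against 248, 306 and 289 CPM, a 1.29-fold difference, and was not called without SIRPa replicate 1 (adjusted p = 0.0653) or XCR1 replicate 1 (adjusted p = 0.0901). Treml4, an activating receptor that binds dead cells, and Btla were higher in XCR1 together with Clec12a; Treml4 was at 4.97, 4.44 and 6.46 against 24.2, 26 and 18.1 CPM. Among receptors for antibody, 8 of 14 tested members were higher in SIRPa, 1 was higher in XCR1 and 5 were not called. The activating Fcgr3 was at 74.4, 70.1 and 68.5 against 1.05, 0.713 and 0.723 CPM, Fcgr1 at 54.2, 39.7 and 47.8 against 0.0998, 1.43 and 1.01 CPM, the inhibitory Fcgr2b at 201, 200.4 and 215 against 27.5, 17.5 and 17.6 CPM and the signalling chain Fcer1g at 233, 189 and 221 against 7.23, 8.31 and 13.8 CPM. Fcgrt, the neonatal Fc receptor that recycles IgG, was higher in XCR1 at 46.8, 48.3 and 59.2 against 91.5, 103 and 90.3 CPM (log2 fold change -0.88 ± 0.16 (SE), adjusted p = 0.000312).

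Complement genes were the list with the highest median: 16 of 20 tested members were higher in SIRPa, 0 were higher in XCR1 and 4 were not called, with a median log2 fold change of 6.76, or 4.84 with 5 genes set to their bound. C1qa (chromosome 4, 136895917 to 136898803, minus strand) was at 729, 664 and 719 CPM in the SIRPa libraries and 1.2, 0.855 and 9.93 CPM in the XCR1 libraries (log2 fold change 7.46 ± 0.85 (SE), adjusted p = 0.000952). C1qb and C1qc, the partner chains of the same C1q molecule, were at 596 ± 8.88 against 3.96 ± 2.89 CPM and 552 ± 61.2 against 5.23 ± 3.37 CPM. In XCR1 replicate 3 C1qa stood at 9.93 CPM, above the other XCR1 libraries and far below the SIRPa libraries. C3ar1, the receptor for C3a, was at 163, 104 and 122 against 0.948, 2.42 and 0.0965 CPM, Cfp, properdin, at 106, 105 and 105 against 21.8, 21 and 23.3 CPM and Cfb, factor B, at 19.3 ± 3.55 against 0.0643 ± 0.111 CPM. Cfb shares 79.5% of its exonic bases with a readthrough gene, so its count is uncertain. The C1q chains are also macrophage markers, and that list was higher in the same libraries, as given above.

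The machinery of uptake was divided between the populations by receptor. Of the list, 22 of 33 tested members were higher in SIRPa, 6 were higher in XCR1 and 5 were not called. Besides Axl, the SIRPa side had Mertk, a further receptor of its family, at 85.6, 60 and 69.3 CPM in the SIRPa libraries and 3.89, 0 and 2.41 CPM in the XCR1 libraries, their bridging ligand Gas6 at 5.63 ± 1.59 against 0.144 ± 0.174 CPM, and Itgb5, the β5 integrin chain, at 244, 190.0 and 245 against 7.28, 9.93 and 6.27 CPM. The scavenger receptor Stab1 was at 68.9, 46.6 and 49.6 against 0.249, 0 and 0.482 CPM, Msr1 at 58.2, 60.5 and 62.3 against 0, 0.95 and 1.69 CPM and Lrp1 at 148 ± 22.6 against 13.5 ± 1.74 CPM. On the XCR1 side stood Cd36 (chromosome 5, 17781690 to 17888801, minus strand), a scavenger receptor for oxidised lipid and dead cells, at 6.29, 13 and 7.35 against 186, 190.4 and 178 CPM (log2 fold change -4.37 ± 0.30 (SE), adjusted p = 3.36e-07), and Clec9a. Dnase1l3, a secreted nuclease that digests DNA of dead cells, was at 359.6, 299 and 311 against 757, 800.0 and 604 CPM. Anxa1 was at 54.7 ± 3.19 against 177 ± 18.6 CPM and Havcr2, TIM-3, at 144 ± 9.04 against 245 ± 24 CPM. Mfge8, a bridging protein for dead cells, was not called at 50.4, 49.1 and 49.2 against 40.3, 45.7 and 37.6 CPM.

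Targets of the LXR receptors were called more often toward SIRPa, while genes of cholesterol synthesis were mostly not called. Of these targets of sterol-sensing receptors, 11 of 17 tested members were higher in SIRPa, 2 were higher in XCR1 and 4 were not called. Without XCR1 replicate 3, 1 of them was higher in XCR1. Abca1, the cholesterol exporter, was at 385, 359.5 and 411 CPM in the SIRPa libraries and 8.13, 7.36 and 19.5 CPM in the XCR1 libraries (log2 fold change 5.04 ± 0.39 (SE), adjusted p = 5.41e-05). Nr1h3, which encodes LXRα, was at 79.3, 49.7 and 48.4 against 0.349, 0.38 and 2.7 CPM, and Pltp, the phospholipid transfer protein, at 194, 149.9 and 153 against 0.698, 0.38 and 0.916 CPM. Nr1h2, which encodes LXRβ, was higher in XCR1 at 48.6, 41.7 and 44.6 against 79.6, 66.1 and 58.4 CPM, with an adjusted p of 0.05 without XCR1 replicate 1. Lpl, lipoprotein lipase, was at 99.1 ± 17.7 against 2.62 ± 1.34 CPM. Srebf1 was not called at 53.9 against 56.3 CPM. Of the synthesis list, 3 of 23 tested members were higher in SIRPa, 5 were higher in XCR1 and 15 were not called. The share higher in SIRPa, 13%, was near the 13.9% of all tested genes. The share higher in XCR1 was 21.7%, beside 10.7% of all tested genes. Srebf2, the regulator of the pathway, was higher in XCR1 at 153, 156 and 149 against 331, 286 and 269.7 CPM, while Hmgcs1, an enzyme of its early steps, was higher in SIRPa at 75.2 ± 3.34 against 48.8 ± 6.33 CPM. Without SIRPa replicate 2 or XCR1 replicate 3, 3 of this list were higher in XCR1.

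Lysosomal enzymes differed in both directions. Of the list, 24 of 37 tested members were higher in SIRPa, 7 were higher in XCR1 and 6 were not called. Among the cathepsins higher in SIRPa, Ctsd was at 520.2, 463 and 459 CPM in the SIRPa libraries and 9.98, 7.03 and 24 CPM in the XCR1 libraries, Ctsb at 1718, 1442 and 1462 against 228, 266 and 247 CPM, Ctsc at 699 ± 38.1 against 102 ± 7.2 CPM, Ctsl at 62 ± 8.76 against 5.73 ± 3.69 CPM and Ctsh at 531 ± 42.2 against 129 ± 9.82 CPM. Ctsa, protective protein, was at 387, 341 and 352 against 16.4, 16.2 and 22.6 CPM. Lgmn, the asparagine endopeptidase that starts the cleavage of some antigens, was at 422, 357 and 393 against 52.9, 62.9 and 60.9 CPM. Lamp1, the main protein of the lysosomal membrane, was at 905, 822 and 885 against 178, 200.4 and 187 CPM (log2 fold change 2.21 ± 0.10 (SE), adjusted p = 4.81e-13). Hydrolases of lipid and glycan were called in both directions. Higher in SIRPa were for example Asah1, acid ceramidase, at 203 ± 18.1 against 120.3 ± 17.1 CPM and Manba, a mannosidase, at 39.8 ± 6.27 against 23.4 ± 3.65 CPM. Higher in XCR1 were Ppt1, palmitoyl-protein thioesterase, at 197, 209.7 and 167 against 1936, 1986 and 1764 CPM (log2 fold change -3.31 ± 0.11 (SE), adjusted p = 8.63e-15), Naaa, which hydrolyses fatty acid ethanolamides, at 96.7, 157 and 109 against 1676, 1698 and 1374 CPM (log2 fold change -3.71 ± 0.16 (SE), adjusted p = 5.42e-11), Arsb at 122 ± 17.2 against 572 ± 48 CPM, Gusb at 144 ± 9.6 against 423 ± 40.7 CPM and Fuca1 at 59.3 ± 7.09 against 147 ± 21.5 CPM. Arsb shares 39.9% of its exonic bases with genes on the other strand, Ctsl 26.8% likewise, and Ctsd 34.4% with a readthrough gene on its own. The Lamp1 promoter is shown because MITF-family factors, among them the product of Tfec, bind TCACGTG, which is in capitals here on either strand (120 bases before the RefSeq start, chr8:13159041-13159160, plus strand).
Lamp1: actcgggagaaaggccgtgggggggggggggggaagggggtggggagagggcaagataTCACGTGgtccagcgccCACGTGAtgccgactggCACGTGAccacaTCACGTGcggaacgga
It holds 4 matches. Whether the product of Tfec or another factor of the family binds them was not tested. Among lysosomal list members with a window, 17.9% held TCACGTG in the 250 bases before the start, against 4.89% of all tested genes, and 4.82% of the genes higher in SIRPa by at least 2-fold.

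Presentation genes were called in both directions. Of the MHC class II list, 8 of 18 tested members were higher in SIRPa, 4 were higher in XCR1 and 6 were not called, with a median of 0.04. Among the classical chains and the invariant chain, H2-Aa, H2-Eb1 and Cd74 were not called. H2-Aa was at 3285, 3349.6 and 3678 CPM in the SIRPa libraries and 3381, 3753 and 3079 CPM in the XCR1 libraries, H2-Eb1 at 3133, 3171 and 3525 against 3661, 3895 and 3208 CPM and Cd74 at 11564, 11070.2 and 11805 against 13395, 13082 and 10681 CPM. H2-Ab1 was at 5275, 5451 and 6355 against 7141, 7640.3 and 6295 CPM, 1.23-fold higher in XCR1 by the means (adjusted p = 0.0326), with SIRPa replicate 3 above XCR1 replicate 3, and was not called without any 1 of SIRPa replicates 1 and 2 and XCR1 replicates 1 and 2 (adjusted p from 0.0919 to 0.151). Around these chains the processing genes differed. The proteases Ctss, Ctsb, Lgmn and Ctsl and the thiol reductase Ifi30, at 1183 ± 40.1 against 598 ± 64.3 CPM, were higher in SIRPa. Genes of peptide editing and its regulation went both ways. H2-DMb1 was at 118, 131 and 141 against 213, 215 and 186 CPM, higher in XCR1. H2-Ob, whose product regulates editing, was at 30.9, 40.2 and 35 against 75.6, 82.4 and 72.1 CPM, also higher in XCR1. In contrast, H2-DMb2 was at 108, 112 and 125 against 33.1, 50.5 and 38.3 CPM, higher in SIRPa. H2-DMb1 and H2-DMb2 are near copies, and reads may have been split between them. Without XCR1 replicate 2, 2 members of the list were higher in XCR1 instead of 4.

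Of the class I and cross-presentation list, 4 of 26 tested members were higher in SIRPa, 13 were higher in XCR1 and 9 were not called, with a median of -0.36. The immunoproteasome subunit Psmb9 was at 70.3, 75 and 65.7 CPM in the SIRPa libraries and 171, 209 and 153 CPM in the XCR1 libraries, and Psmb8 at 325, 364 and 344 against 546, 641 and 539 CPM. The activator subunits Psme1 and Psme2 were at 500.4 ± 31.7 against 950.5 ± 80.3 CPM and 204 ± 5.01 against 303 ± 27.9 CPM. The peptide transporter chain Tap1 was at 280.4, 264 and 289.6 against 464, 529 and 458 CPM, and Tap2 at 92.1, 98.4 and 105 against 216, 174 and 186 CPM. All 6 were higher in XCR1 by less than 3-fold. The loading chaperones Pdia3 and Calr were at 878 ± 25.9 against 1419.5 ± 142 CPM and 1531 ± 19.7 against 2140.4 ± 331 CPM. Rab43, needed for cross-presentation in cDC1, was at 21.4 ± 1.82 against 56.5 ± 10 CPM, but 75.4% of its exonic bases are shared with a readthrough gene. The class I chain H2-K1 was not called at 1860.3, 1675 and 1723 against 1550.5, 1582 and 1328 CPM, although limma-voom called it (adjusted p = 0.0212). H2-D1 was not called at 1927, 1829 and 1992 against 1819.8, 1900.5 and 1670.1 CPM. Their partner B2m was higher in SIRPa at 3153, 2833 and 2902 against 1914, 2308 and 1903 CPM (log2 fold change 0.54 ± 0.10 (SE), adjusted p = 0.000277). The other members higher in SIRPa were Cybb, its activator Rac2 at 82.6 ± 18 against 27.5 ± 9.68 CPM and Rab27a, which delivers the oxidase to phagosomes, at 70.1 ± 3.33 against 44.2 ± 6.93 CPM. The named genes of the oxidase and of peptide supply to class I thus differed in opposite directions.

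**Figure D4:**
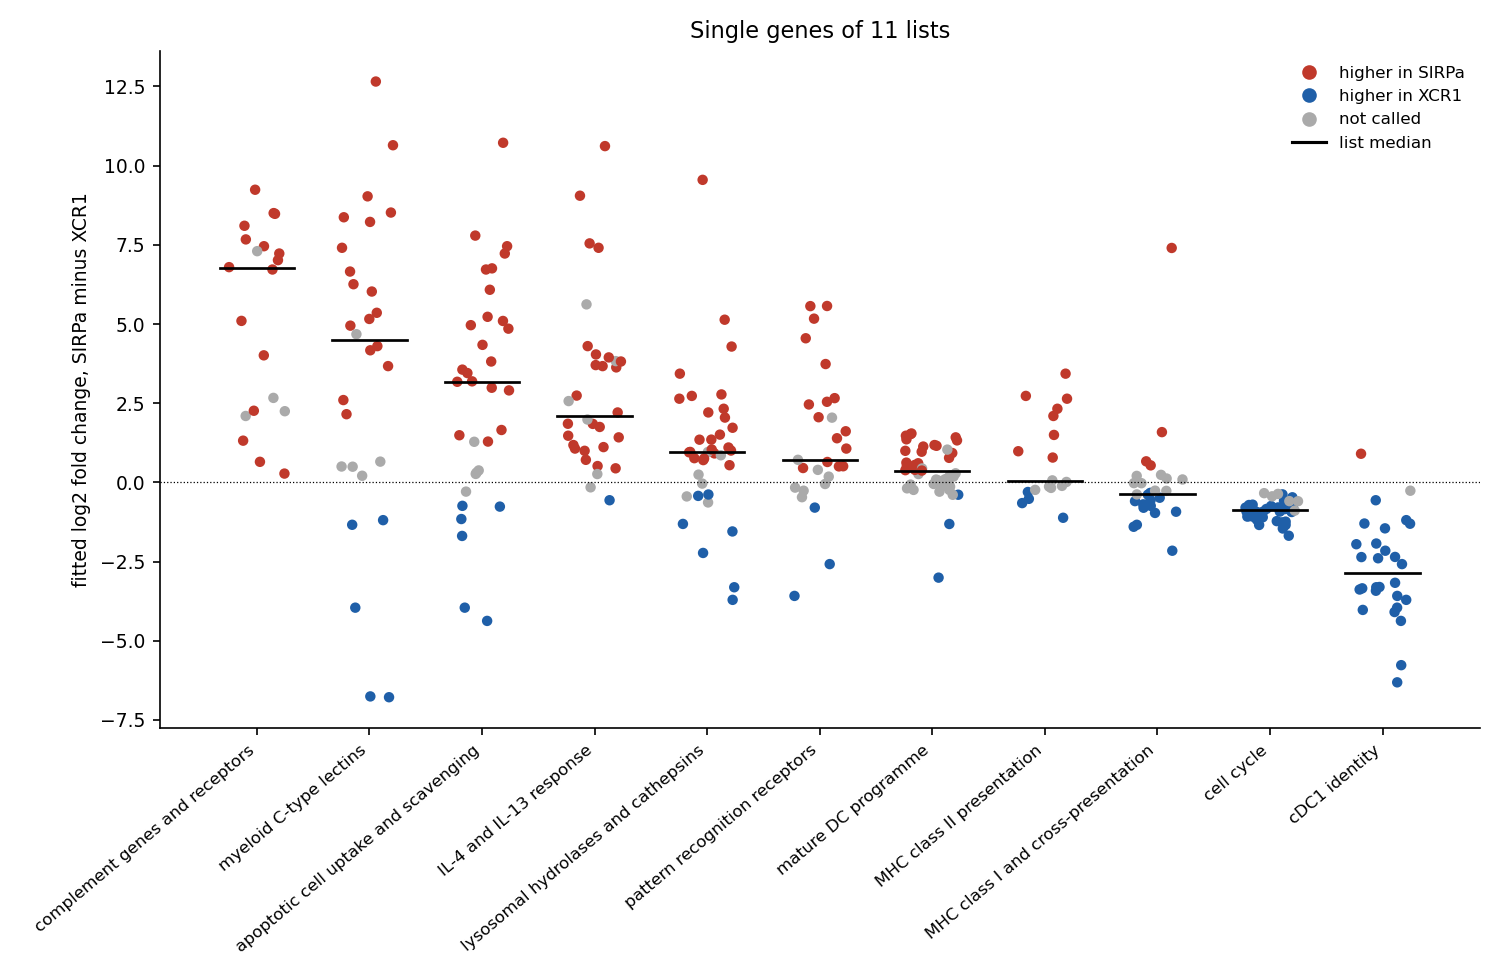
Fitted log2 fold change (SIRPa minus XCR1) of each tested gene in 11 lists, coloured by call, with a bar at the list's median. Complement, lectin and uptake genes reach past 5 on the SIRPa side, MHC class II and class I medians lie at 0.04 and -0.36, and no cell cycle gene lies above 0.

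The maturation programme is switched on when dendritic cells migrate. Of its list, 20 of 43 tested members were higher in SIRPa, 3 were higher in XCR1 and 20 were not called, with fitted log2 fold changes between -3.01 and 1.54. Fscn1, the actin bundler of mature cells, was at 1082, 1012 and 1016 CPM in the SIRPa libraries and 961, 1130.2 and 807 CPM in the XCR1 libraries and was not called, like Ccr7, Cd40 at 110.1, 120.1 and 127 against 120.3, 136 and 119 CPM and Cd83 at 291 against 256 CPM. The 3 members higher in XCR1 were Il12b, Cd86 at 126, 115 and 100.1 against 266, 317 and 265 CPM (log2 fold change -1.31 ± 0.13 (SE), adjusted p = 7.06e-08) and Serpinb9, an inhibitor of granzyme B, at 195 ± 7.39 against 255 ± 53.7 CPM. Serpinb9 was not called without XCR1 replicate 2 (adjusted p = 0.302) or any 1 of the SIRPa libraries (adjusted p from 0.0569 to 0.104), and 5 members were higher in XCR1 in a fit of the 6 libraries alone. The non-classical H2-M2 was at 393, 321 and 454 against 140.1, 137 and 123 CPM, higher in SIRPa, and Il4i1, an amino acid oxidase, at 415, 459 and 480.3 against 145, 198 and 145 CPM, although 85.9% of its exonic bases face genes on the other strand. Among ligands for T cells, 8 of 21 tested members were higher in SIRPa, 3 were higher in XCR1 and 10 were not called. Cd274, PD-L1, was at 175, 181 and 175 against 63.8, 89.3 and 58.8 CPM (log2 fold change 1.33 ± 0.15 (SE), adjusted p = 7.92e-07), Pdcd1lg2, PD-L2, at 21.7 ± 4.4 against 9.58 ± 0.574 CPM and Icosl at 282, 242 and 246 against 125, 143 and 124 CPM. Tnfsf4, OX40 ligand, was at 7.34, 4.74 and 7.26 against 0, 0 and 0 CPM, and Cd276 at 6.91, 5.45 and 2.97 against 0, 0 and 0 CPM. Cd80, which shares receptors with CD86, was not called at 39.3, 44.7 and 36.8 against 35.4, 35.7 and 27.9 CPM, and whether its difference is smaller than that of Cd86 was not tested.

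Adhesion genes showed exchanges of related chains. Of the integrins, 7 of 22 tested members were higher in SIRPa, 6 were higher in XCR1 and 9 were not called. Itga9 was at 123, 74 and 76.7 CPM in the SIRPa libraries and 0, 0 and 1.06 CPM in the XCR1 libraries, Itgam, CD11b, at 19.4, 13.6 and 15.7 against 1.15, 1.33 and 0.53 CPM and Itgb5 at the values above, all higher in SIRPa, with 68.7% of the exonic bases of Itgam shared with a readthrough gene. Itga8 was at 2.37, 4.88 and 4.81 against 50.2, 40.1 and 35.5 CPM, Itgb7, the partner of the Itgae chain, at 64.3, 74.5 and 72 against 162, 129 and 107 CPM, Itgal, LFA-1, at 120.4 ± 10.2 against 235 ± 27.1 CPM and Itga1 at 7.26 ± 3.42 against 23.8 ± 2.26 CPM, all higher in XCR1. Itga4 and Itgb1 were not called, at 461 against 479 CPM and 449 against 409 CPM. Outside the integrins, 10 of 27 tested members were higher in SIRPa, 6 were higher in XCR1 and 11 were not called. Vcam1 was at 487, 389.8 and 382 against 74.4, 82.9 and 72.3 CPM, the neuropilin Nrp2 at 223, 229 and 213 against 32.4, 32.3 and 21.7 CPM and L1cam at 60.3 ± 5.05 against 4.55 ± 2.41 CPM. The tetraspanins Cd9 and Cd81 were at 52.3 ± 8.13 against 122 ± 24.7 CPM and 63.4 ± 11.8 against 117 ± 15.5 CPM, higher in XCR1, and Icam1 was not called at 287, 269.9 and 262 against 315, 336 and 281 CPM. In the Notch pathway, 4 of 20 tested members were higher in SIRPa, 5 were higher in XCR1 and 11 were not called. The ligand Jag1 was at 23.3, 21.8 and 24.6 against 69, 75.3 and 44.7 CPM, higher in XCR1, whereas the ligand Dll4 was at 20.7, 23.7 and 25.4 against 0.848, 7.55 and 1.98 CPM, higher in SIRPa. The proteases Adam10 and Adam17, which cut Notch receptors, were at 190.3 ± 4.33 against 90.3 ± 5.24 CPM and 235 ± 35.5 against 110.4 ± 5.61 CPM.

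Regulators of actin and vesicle traffic were near balance in number: 15 of 36 tested members were higher in SIRPa, 11 were higher in XCR1 and 10 were not called. Myo1e, a class I myosin, was at 148, 145 and 128 CPM in the SIRPa libraries and 1.8, 3.33 and 0.82 CPM in the XCR1 libraries and Rab3il1 at 95.4, 94.2 and 86.6 against 1.6, 4.09 and 4.34 CPM. Fgd6 was at 3.27, 5.58 and 0.707 against 57.4, 45.7 and 52.3 CPM, Rab7b at 50.3, 46.8 and 39.8 against 451, 405 and 375 CPM and Snx22, a sorting nexin, at 5.96, 9.84 and 10.6 against 109, 83.2 and 90.1 CPM, higher in XCR1. Snx22 shares 28.5% of its exonic bases with Ppib on the other strand. Of the enzymes and receptors of eicosanoids, 10 of 19 tested members were higher in SIRPa, 1 was higher in XCR1 and 8 were not called. Pla2g7, which degrades platelet-activating factor, was at 201, 185 and 172 against 2.34, 2.61 and 5.16 CPM and Hpgds, prostaglandin D synthase, at 49 ± 3.41 against 8.68 ± 0.606 CPM while Alox5ap, the protein that presents substrate to 5-lipoxygenase, was higher in XCR1 at 55, 76.2 and 72.5 against 143, 163 and 135 CPM. Of the purine genes, 8 of 19 tested members were higher in SIRPa, 3 were higher in XCR1 and 8 were not called. P2ry13 was at 60.7, 50.5 and 50.1 against 0.549, 0.285 and 3.67 CPM, P2ry12 at 22.7 ± 1.48 against 3.69 ± 1.75 CPM and P2ry14, in the same receptor cluster, at 36.1, 46.3 and 34.9 against 70.4, 83.9 and 69.2 CPM in the opposite direction. Entpd1, CD39, was not called at 136, 131 and 142 against 129, 153 and 126 CPM.

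Cell cycle genes formed a list with a single direction. Of it, 0 of 38 tested members were higher in SIRPa, 32 were higher in XCR1 and 6 were not called, with a median log2 fold change of -0.87 and a range of -1.68 to -0.34. Mki67, the Ki-67 antigen of dividing cells, was at 336, 461 and 442 CPM in the SIRPa libraries and 897, 703 and 990.2 CPM in the XCR1 libraries (log2 fold change -1.06 ± 0.14 (SE), adjusted p = 9.75e-06). Top2a, topoisomerase IIα, was at 239, 298 and 276 against 475, 451 and 613 CPM. Cdk1, the kinase of mitosis, was at 17.1, 19.8 and 21.4 against 67.8, 55.4 and 64.2 CPM (log2 fold change -1.68 ± 0.19 (SE), adjusted p = 6.17e-07), Ccnb2, its cyclin B2 partner, at 19.4, 22.9 and 20.5 against 47.6, 53.4 and 58.4 CPM and Cdc20, the activator of mitotic exit, at 10.4, 14.3 and 13.4 against 28.5, 32.7 and 27.8 CPM. Mcm6, of the replicative helicase, was at 141 ± 13.8 against 218 ± 26.8 CPM. The populations did not overlap for 36 of 38, beside 40.2% of all tested genes. Not called were among others Cdt1 at 21.4 against 27.1 CPM and Tyms at 18.1 against 24.6 CPM. Thymocytes also divide, and their markers were highest in XCR1 replicate 3 among the XCR1 libraries, as was Mki67 at 990.2 CPM. In XCR1 replicates 1 and 2 the thymocyte and T cell markers summed to 639 and 563 CPM, below the 1060 to 1560 CPM of the SIRPa libraries. Mki67 in these XCR1 libraries, at 897 and 703 CPM, was above every SIRPa library. Without that library 30 members were called higher in XCR1. The marker sums include Cd4, Il7r and Cd8a, which are also genes of dendritic cells, so they do not measure thymocytes alone. The part of thymocytes in the cell cycle difference was not tested.

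Because these genes moved together, bases upstream of the RefSeq starts of the 4 named mitotic genes are shown, without those that GENCODE places in an exon of Cdk1 or Cdc20, and with CCAAT, the site of the factor NF-Y, and TTTGAA, the cell cycle homology region, in capitals on either strand.
Top2a (chr11:99024190-99024289, minus strand): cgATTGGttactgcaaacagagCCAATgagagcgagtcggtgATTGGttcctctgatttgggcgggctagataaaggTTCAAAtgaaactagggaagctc
Cdk1 (chr10:69352939-69353012, minus strand): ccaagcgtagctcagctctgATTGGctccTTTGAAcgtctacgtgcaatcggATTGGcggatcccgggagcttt
Ccnb2 (chr9:70421555-70421654, minus strand): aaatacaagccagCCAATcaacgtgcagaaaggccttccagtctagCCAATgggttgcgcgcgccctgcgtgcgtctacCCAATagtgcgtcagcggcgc
Cdc20 (chr4:118437353-118437443, minus strand): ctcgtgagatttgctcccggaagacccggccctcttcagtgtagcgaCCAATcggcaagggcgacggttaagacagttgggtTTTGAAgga
Top2a and Ccnb2 hold 3 CCAAT matches each, Cdk1 holds 2 and Cdc20 holds 1, and Cdk1, Cdc20 and Top2a also hold TTTGAA. The shares that follow count from the RefSeq start and leave no exon out. Of the 32 list members with a window, 25 (78.1%) held CCAAT in the 250 bases before the start. The share was 36.6% among all tested genes with a window and 34.5% among all promoters kept, with 1 per gene. For TTTGAA the shares were 28.1% of these list members (9 of 32), 10.9% of all tested genes with a window and 16.3% of all promoters kept. TTTGAA was not particular to this list: 8 of the 20 GTPase and IFI200 list members with a window also held it. Its share was 12.1% both among genes higher in SIRPa by at least 2-fold and among those higher in XCR1. Among all genes higher in XCR1 by at least 2-fold the CCAAT share was 37.7%.

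**Figure D5:**
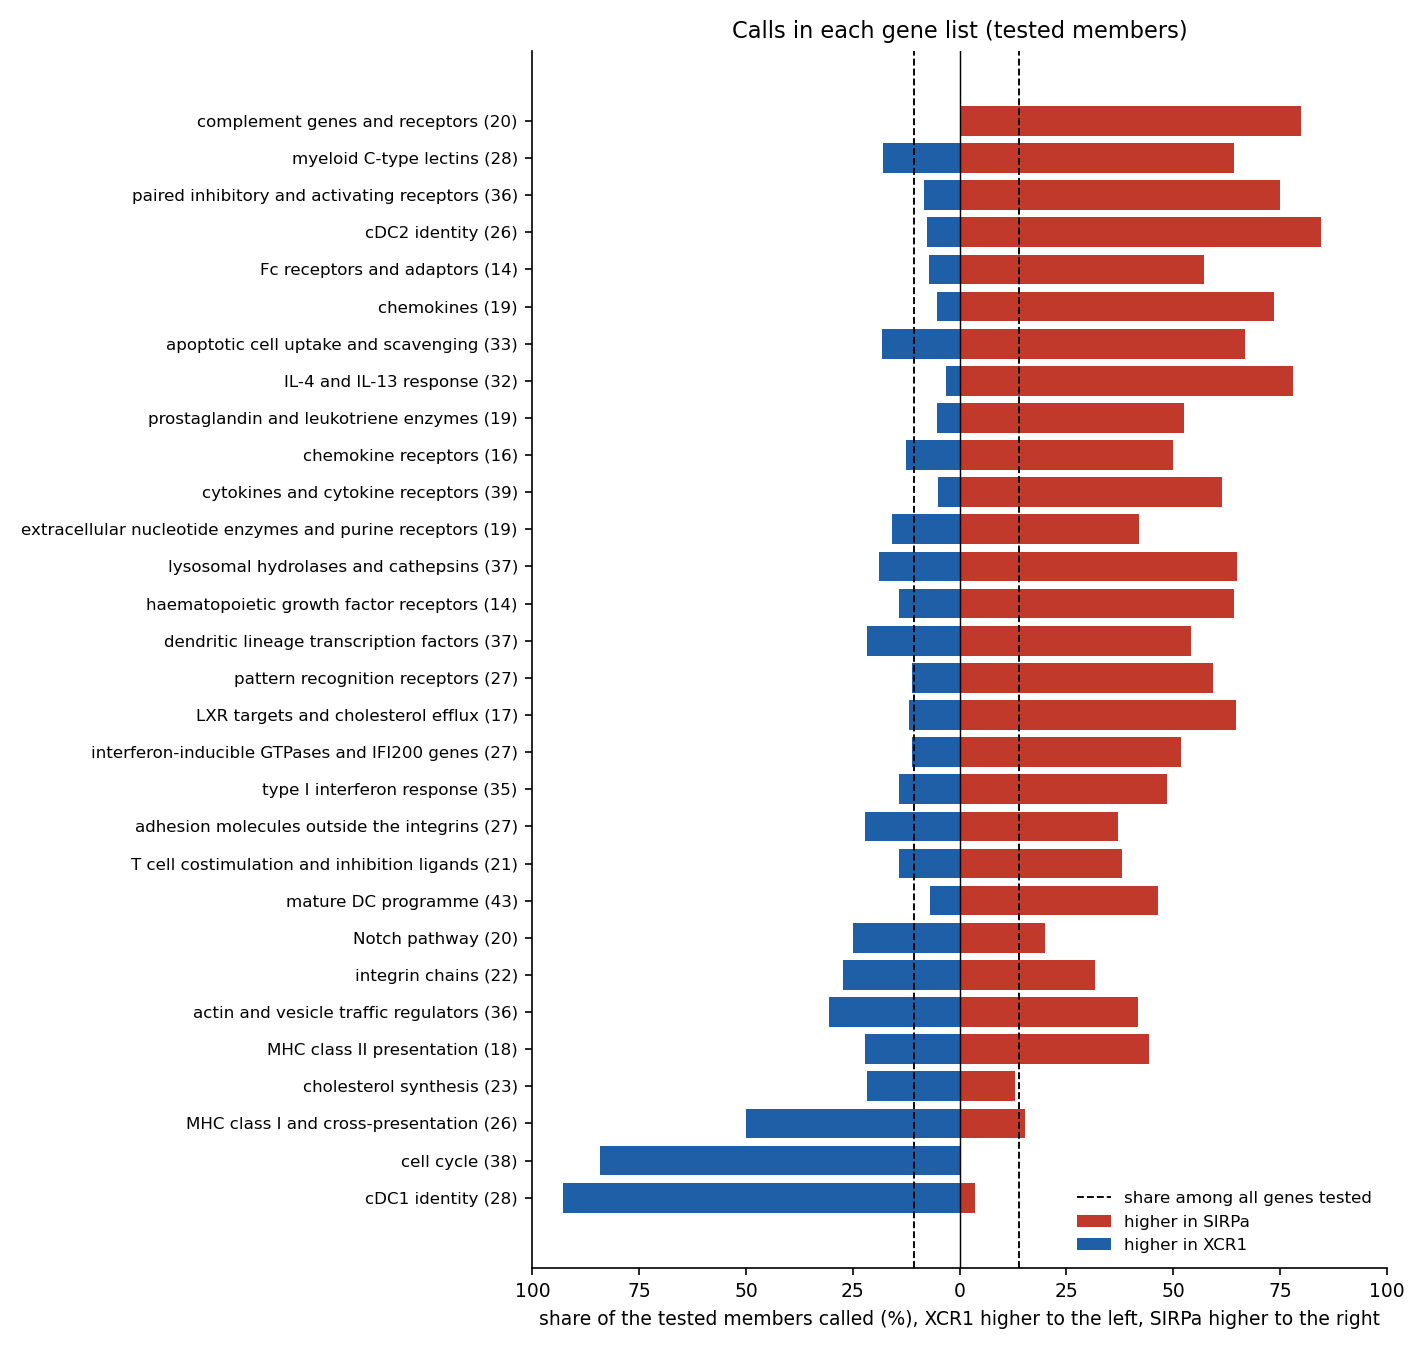
Share of each list's tested members (number in parentheses) called higher in SIRPa (to the right, %) and higher in XCR1 (to the left, %), sorted by median log2 fold change, with dashed lines at the shares among all tested genes, 13.9% and 10.7%. The cDC1 and cell cycle lists are the ones called mostly toward XCR1, with class I presentation next.

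Genes of tissue handling were called in both directions. Of the immediate early and dissociation genes, 5 of 23 tested members were higher in SIRPa, 6 were higher in XCR1 and 12 were not called. Egr1 was higher in XCR1 at 44.5, 43.6 and 38.9 CPM in the SIRPa libraries and 113, 135 and 94.7 CPM in the XCR1 libraries. Fos and Jun were not called, with means of 282 against 335 CPM and 299.8 against 289 CPM. Without SIRPa replicate 1, XCR1 replicate 2 or XCR1 replicate 3, 3 of this list were higher in SIRPa. None of 11 tested mitochondrially encoded genes was called by edgeR's quasi-likelihood test, with 2 at an unadjusted p under 0.05, 1 called by DESeq2 and 1 by limma-voom. Of the thymocyte and T cell markers, 2 of 26 tested members were higher in SIRPa, 1 was higher in XCR1 and 23 were not called. The 2 higher in SIRPa were Cd4, at 315, 318 and 282 against 15.1, 17.3 and 39.5 CPM, and Il7r, both also known from cDC2, and the member higher in XCR1 was Cd8a. The T cell receptor chain gene Cd3e was not called at 18.4, 13.3 and 39.6 against 14.1, 9.22 and 48.6 CPM. Without XCR1 replicate 3, 10 of these markers were higher in SIRPa, 7 of 12 granulocyte markers instead of 2, and 4 stroma and endothelium markers instead of 2. In that fit Dntt and Lck, not called with all libraries, were higher in SIRPa with log2 fold changes of 1.65 (adjusted p = 0.0124) and 1.03 (adjusted p = 0.0268).

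Of the other lists of cells, 5 of 13 tested B cell markers, 12 of 18 plasmacytoid, 11 of 15 monocyte, 4 of 14 NK and innate lymphoid, 3 of 14 thymic epithelial and 1 of 6 erythroid and platelet markers were higher in SIRPa, and none of these but 1, Klrk1 of the NK list at 26.2, 44.8 and 33.9 CPM in the SIRPa libraries and 56.4, 73.5 and 64 CPM in the XCR1 libraries, was higher in XCR1. Vwf of the stromal list was higher in XCR1 at 1.14, 3.69 and 1.04 against 17.4, 11.4 and 19.1 CPM. Without any 1 of the SIRPa libraries 2 of the B cell markers were called, and without SIRPa replicate 1, 2 of the NK markers. Aire, the factor of medullary epithelium that is also found in thymic B cells, was at 9.23, 8.79 and 8.95 against 1.75, 1.24 and 2.27 CPM. Krt14 and Foxn1, defining genes of epithelium, were at or under 1 CPM in both means, while the keratin gene Krt5 was called higher in SIRPa. Trp63 of the same list was not called, with 74 counts over the SIRPa libraries and 2 over the XCR1 libraries. The erythroid gene Klf1 and the endothelial genes Tek and Emcn had 0 counts in all 6 libraries. By contrast, the endothelial genes Kdr and Pecam1 and the platelet gene Pf4 were called higher in SIRPa. The stroma and endothelium list summed to 225 to 275 CPM in the SIRPa libraries and 76.3 to 92.6 CPM in the XCR1 libraries. Whether the populations overlapped for Krt5, Kdr, Pecam1 or Pf4 is not given here.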

How the data were processed

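RNA from sorted thymic dendritic cells was sequenced after preparation with the Clontech SMARTer stranded Pico v2 kit on a NextSeq, per the labels' protocols. The deposited table holds whole-number read counts per gene, the authors' raw counts. The submitters' processing notes name FastQC, Trimmomatic, HISAT2, SAMtools, featureCounts of Subread, edgeR and the build mm10; the sources used here give no versions, strand setting or treatment of multi-mapping reads. From the table, 24 rows whose gene names had become dates were left out, and libraries were grouped by title.

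Genes passing filterByExpr (minimum count 10) were scaled by TMM and tested in edgeR 4.0.16 (R 4.3.3) with glmQLFit (robust) and glmQLFTest on all 9 libraries, SIRPa minus XCR1, two-sided, with Benjamini-Hochberg adjustment over 15417 genes and a threshold of 0.05. The SE of a log2 fold change is its size divided by the square root of the F statistic. Total counts per library are 20481629 to 22030933, and the biological coefficient of variation was 47%. Where a population had no count, a fold is a lower bound against 3 counts over the group, which covers counting error only. The procedure was tested on simulated counts of 14661 genes for this comparison: it recovered 15.2% of genes changed 1.5-fold, 55.3% at 2-fold, 72.3% at 4-fold and 65.3% at 8-fold, and 11 of 110 calls were false. That false share exceeds the 0.05 threshold. Far fewer genes were changed in the simulation than were called in the data, so its rates need not hold there. Alternatives used DESeq2 1.42.0, limma 3.58.1 (voom), DESeq2's size factors in edgeR, other filters, the 6 libraries alone, a replicate block, and each library left out.

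The compared libraries and the gene lists were chosen with earlier results of these data known, so lists are described by counts and medians without a test. Named genes are the 4 markers, the 12 in each direction with the largest fold change (mean of at least 5 CPM, groups not overlapping, predicted models and antigen receptor segments left out), the 12 with the largest difference in CPM, and in each list the 4 called genes with the smallest adjusted p per direction, minority calls of 3 or fewer, and the 2 most abundant uncalled genes. Further list members named in the text, such as C1qa, Clec7a, Zeb2, Abca1, Lamp1, Mki67 and Tlr7, and all genes of the closing observations, were chosen after their values were seen. Some genes that the rule would name are not reported here and remain in the counts of their lists. Gene coordinates and shared exonic bases are from GENCODE vM21, which matched 15249 of the tested symbols. Promoter windows are from RefSeq (GRCm38.p6), with 10297 of the tested genes matched. Promoters on chromosome 18 and windows not of full length were left out, and each gene's most upstream start was used. Motifs were searched on both strands.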

Additional observations from a re-analysis of the deposited data

Results flagged for a closer look

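The 24 rows left out because their gene names had turned into dates, as spreadsheets do to genes such as the septins and the MARCH ligases, held reads in every library. Their share of all counts was 0.125%, 0.135% and 0.132% in SIRPa replicates 1, 2 and 3, and 0.183%, 0.177% and 0.187% in XCR1 replicates 1, 2 and 3. The share was higher in each XCR1 library than in each SIRPa library. Which gene each row stands for cannot be read from a date that several genes can give, so no gene of these families is reported.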

How the results depend on the processing

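With 2147 genes higher in SIRPa and 1656 in XCR1 as the base, the counts were 2159 and 1642 with DESeq2's size factors, 2413 and 1733 by DESeq2, 2192 and 1786 by limma-voom, 2191 and 1760 without a filter, 2021 and 1664 with a stricter filter, and 2110 and 1819 on the 6 libraries alone. Counting only differences of at least 2-fold gave 1478 and 583. Leaving out 1 library gave 1680 to 2102 and 1335 to 1574, and 77.9% to 86.8% of the calls remained, all in the same direction. Using size factors moved the median log2 fold change of all genes from 0.0582 to 0.0631. The replicate numbers were not used as pairs. Deviations from the group means correlated at 0.00305, 0.0281 and 0.0316 for equal numbers 1, 2 and 3, and at -0.0444 to 0.0184 for unequal numbers. SIRPa replicates 2 and 3 were closest to the XCR1 library of their number, and SIRPa replicate 1 was closest to XCR1 replicate 3 at 0.0146. Values this near 0 do not show whether libraries of equal number share a mouse. With the number as a replicate block, 2087 and 1821 genes were called, with 6 thymocyte markers instead of 2, 3 B cell markers instead of 5 and 2 mitochondrially encoded genes instead of 0. The fit of 6 libraries alone called 2 mitochondrially encoded genes and 2 NK markers instead of 4, while DESeq2, limma-voom and the fit without a filter each called 1 mitochondrially encoded gene. The stricter filter left 3 B cell markers called among 6 tested, and limma-voom called 4 granulocyte markers instead of 2. When 1 library was left out, the number higher in XCR1 in the cholesterol synthesis list was 3 to 4 instead of 5, and the numbers higher in SIRPa were 2 to 10 thymocyte, 2 to 5 B cell, 2 to 7 granulocyte, 2 to 4 NK and 2 to 4 stromal markers. Among 865 list and named genes, 96 lost their call and 69 gained one under at least 1 alternative, and 2 turned direction: Dntt and Lck, not called at first, had log2 fold changes of 1.65 (adjusted p = 0.0124) and 1.03 (adjusted p = 0.0268) in edgeR without XCR1 replicate 3, the library with more thymocyte transcripts, and lowest values of -1.86 and -0.47 without XCR1 replicate 2. In the simulated counts, changes of 1.5-fold were mostly missed. There 110 genes were called, against 3803 in the data, so those recovery rates need not hold here. An uncalled gene is not shown to be equal.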

Other observations

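Families outside the fixed lists were examined after the results were known, and each is given as counts beside the 13.9% of tested genes called higher in SIRPa and 10.7% called higher in XCR1. Genes of protein synthesis and folding leaned to XCR1. Of 17 tested aminoacyl-tRNA synthetases, which charge tRNAs, 14 were higher in XCR1 and 0 in SIRPa, with a median log2 fold change of -0.66. Gars was at 89.4 ± 6.13 against 184 ± 25.4 CPM, Iars at 76.6 ± 2.77 against 157 ± 24.9 CPM and Cars at 27.9 ± 2.84 against 59 ± 5.94 CPM. All 4 tested protein disulfide isomerases were higher in XCR1, led by Pdia5 at 10.6, 9.66 and 5.42 CPM in the SIRPa libraries and 45.4, 50.6 and 41.4 CPM in the XCR1 libraries (log2 fold change -2.42 ± 0.29 (SE), adjusted p = 2.09e-06 by edgeR). Of 81 cytosolic ribosomal protein genes 41 were higher in XCR1 and 0 in SIRPa, with a median of -0.33. Of 61 histone genes of the Hist clusters 39 were higher in XCR1 and 0 in SIRPa, such as Hist1h1d at 229 ± 23.4 against 463 ± 44.9 CPM and Hist1h4d at 123 ± 12.5 against 228 ± 12.8 CPM. The histone genes are near copies of each other and moved in the direction of the cell cycle list. Of 18 tubulin genes 8 were higher in XCR1 and 0 in SIRPa, with Tuba1c at 41.2, 41.7 and 41.8 against 81, 81.8 and 81.4 CPM.

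Several surface and secreted families leaned to SIRPa. Of 9 Ms4a genes, which encode membrane-spanning proteins and adjoin on chromosome 19, 7 were higher in SIRPa, among them Ms4a7 at 55.8, 44.5 and 56.8 CPM in the SIRPa libraries and 0, 0.143 and 0.482 CPM in the XCR1 libraries and Ms4a4c at 120.4, 105 and 121 against 5.29, 4.8 and 6.08 CPM. Of 8 plexins, the receptors of semaphorins, 6 were higher in SIRPa, with Plxnd1 at 538, 478 and 508 against 63.8, 52.2 and 56.2 CPM and Plxna1 at 278 ± 11.5 against 77.6 ± 8.79 CPM. The semaphorins themselves went both ways: Sema4d was at 342, 295 and 332 against 73.6, 78.2 and 102 CPM, while Sema4f was at 5.16, 3.91 and 2.26 against 69.4, 65.4 and 60.2 CPM, higher in XCR1 (log2 fold change -4.10 ± 0.42 (SE), adjusted p = 6.03e-06 by edgeR). Among 12 matrix metalloproteases, 4 were higher in SIRPa and 2 in XCR1. Mmp2, a gelatinase better known from fibroblasts, was at 138, 129 and 131 against 0, 0.143 and 1.35 CPM (log2 fold change 8.04 ± 0.67 (SE), adjusted p = 9.71e-05 by edgeR), and Mmp14, the membrane protease that activates it, at 438, 375 and 391 against 73.4, 71.4 and 67.6 CPM, whereas Mmp28 was at 0.805, 1.01 and 1.79 against 12, 10.2 and 9.84 CPM. Of 6 galectin genes 5 were higher in SIRPa, such as Lgals3 at 304 ± 15.3 against 86 ± 16.3 CPM and Lgals8 at 40 ± 2.09 against 8.02 ± 1.46 CPM. Of 7 phospholipase A2 genes 5 were higher in SIRPa, with the secreted Pla2g2d at 96.9, 68.7 and 60.9 against 0.898, 0.76 and 0.53 CPM. Among 332 Zfp zinc finger genes 12.3% were called, below the 24.7% of all tested genes, with 27 higher in SIRPa and 14 in XCR1. The part of the macrophage markers in these SIRPa-high families was not tested.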
